A study of Homo sapiens with 8 samples.

Results

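Oxidative phosphorylation depends on 5 protein complexes of the inner mitochondrial membrane. Complexes I and II pass electrons to ubiquinone, complex III passes them to cytochrome c, complex IV passes them to oxygen, and complex V, the ATP synthase, uses the proton gradient built by complexes I, III and IV to make ATP. Most subunits are encoded in the nucleus, translated in the cytosol and imported into mitochondria, where they join the few subunits made from mitochondrial DNA. The genes described here are the nuclear-encoded subunits, chosen by their symbols from the 10105 genes of the deposited count table. These were all genes whose symbol begins with NDUFA, NDUFB, NDUFC, NDUFS or NDUFV and a digit, with COX4 to COX8, UQCR or ATP5, together with SDHA to SDHD and CYC1, leaving out symbols with a hyphen. The rule gave 78 genes. By the known place of each protein, 36 belonged to complex I, 4 to complex II, 9 to complex III, 12 to complex IV (with NDUFA4, which carries a complex I name) and 15 to complex V. The other 2 genes, ATP5S and ATP5SL, are not subunits of the ATP synthase and were kept apart.

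The cells were HEK293T, a human embryonic kidney line, either wild-type (WT) or XRN1-null, a line made from them with CRISPR/Cas9 by a frameshifting deletion in the gene of XRN1, the main cytoplasmic 5′–3′ exonuclease for decapped mRNA. Total mRNA (RNA-Seq) and ribosome-protected fragments (RPF, by Ribo-Seq) were each sequenced from 2 biological replicates of WT and 2 of XRN1-null cells, which gives 8 libraries. All XRN1-null libraries came from a single edited line, so the loss of XRN1 and other features of that line cannot be told apart. The comparison asks which messages changed in abundance and in ribosome occupancy when XRN1 was absent.

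RNA-Seq libraries held 33757487 to 38145433 counts and Ribo-Seq libraries 1921641 to 4399542, with WT Ribo-Seq replicate 1 the shallowest. The RNA-Seq counts of XRN1 itself were 1187 and 1084 in the WT replicates but 10655 and 9834 without the protein, while its footprints were at 34.4 and 49.8 counts per 1000000 (CPM, on totals scaled by edgeR's TMM factors) in WT and at 22.6 and 18.4 CPM without it. Reads were counted over the whole gene and the deletion is short, so the mRNA level does not check the label. Of 9 marker genes of HEK293T cells 8 were in the table, and their summed RNA-Seq level was 1082 to 1432 CPM in WT and 1153 to 1200 CPM in XRN1-null libraries. VIM made up most of this sum, and of the other markers EYA1 (-0.83), NEFM (-0.59) and INA (-0.46) fell and KRT18 (0.49) rose on the log2 scale. Of 11 markers of blood, liver, endothelial, fibroblast and muscle cells only COL1A1 was listed, at 13.9 and 15.4 CPM in WT and 36.8 and 37.3 CPM in XRN1-null RNA-Seq. The part of these differences in the results below was not tested. In bulk samples of this kind, fewer cells and less RNA per cell cannot be told apart.

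In WT cells the 78 genes were abundant and well occupied by ribosomes. Together they took 1.43% and 1.37% of the RNA-Seq counts and 2.42% and 2.18% of the Ribo-Seq counts of the respective WT replicates. Their median mRNA level was 141 CPM per kb of the deposited gene width, against 15.0 for all genes, and their median footprint level was 223 against 10.9 CPM per kb of the same width. By median mRNA level per kb the complexes ranked IV (279), V (271), III (142), I (99.0) and II (89.9). The ranges of single genes overlapped between all complexes, from 31.4 to 1092 in complex IV and from 10.7 to 372 in complex I. The deposited width sums all annotated exons of a gene, so genes with long alternative exons appear lower on this scale. COX7C, a small structural subunit of complex IV, had the highest level of the set, at 1092 CPM per kb. ATP5S had the lowest, at 5.68, and also the fewest reads, with at least 386 RNA-Seq and 62 Ribo-Seq counts in every library.

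In XRN1-null cells the mRNAs of these subunits were lower as a group. In the quasi-likelihood test of edgeR, with p-values adjusted after Benjamini and Hochberg over the whole table, 55 of the 78 mRNAs fell at an FDR below 0.005, against 23.2% of all genes tested. None rose at this threshold, against 22.9% of all genes, although 1 had a higher level at an unadjusted p below 0.05 and DESeq2 called the same number higher, against 34% and 26.6% of all genes. The median log2 change of the 78 genes was -0.43, while the median of all genes was -0.015. In 68 of the 78 genes both XRN1-null replicates were below both WT replicates, a pattern seen in 43.7% of all genes. When each XRN1-null library was set against each WT library, 70 or 71 of the 78 log2 ratios were negative, with medians from -0.49 to -0.36.

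The count depended on single libraries. It was 22 when either XRN1-null RNA-Seq replicate was left out, against 11% and 10.9% of all genes in these fits, and 64 and 62 without WT replicate 1 and WT replicate 2, against 30.8% and 33.5%. The median stayed between -0.47 and -0.34 in these fits.

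**Figure D1:**
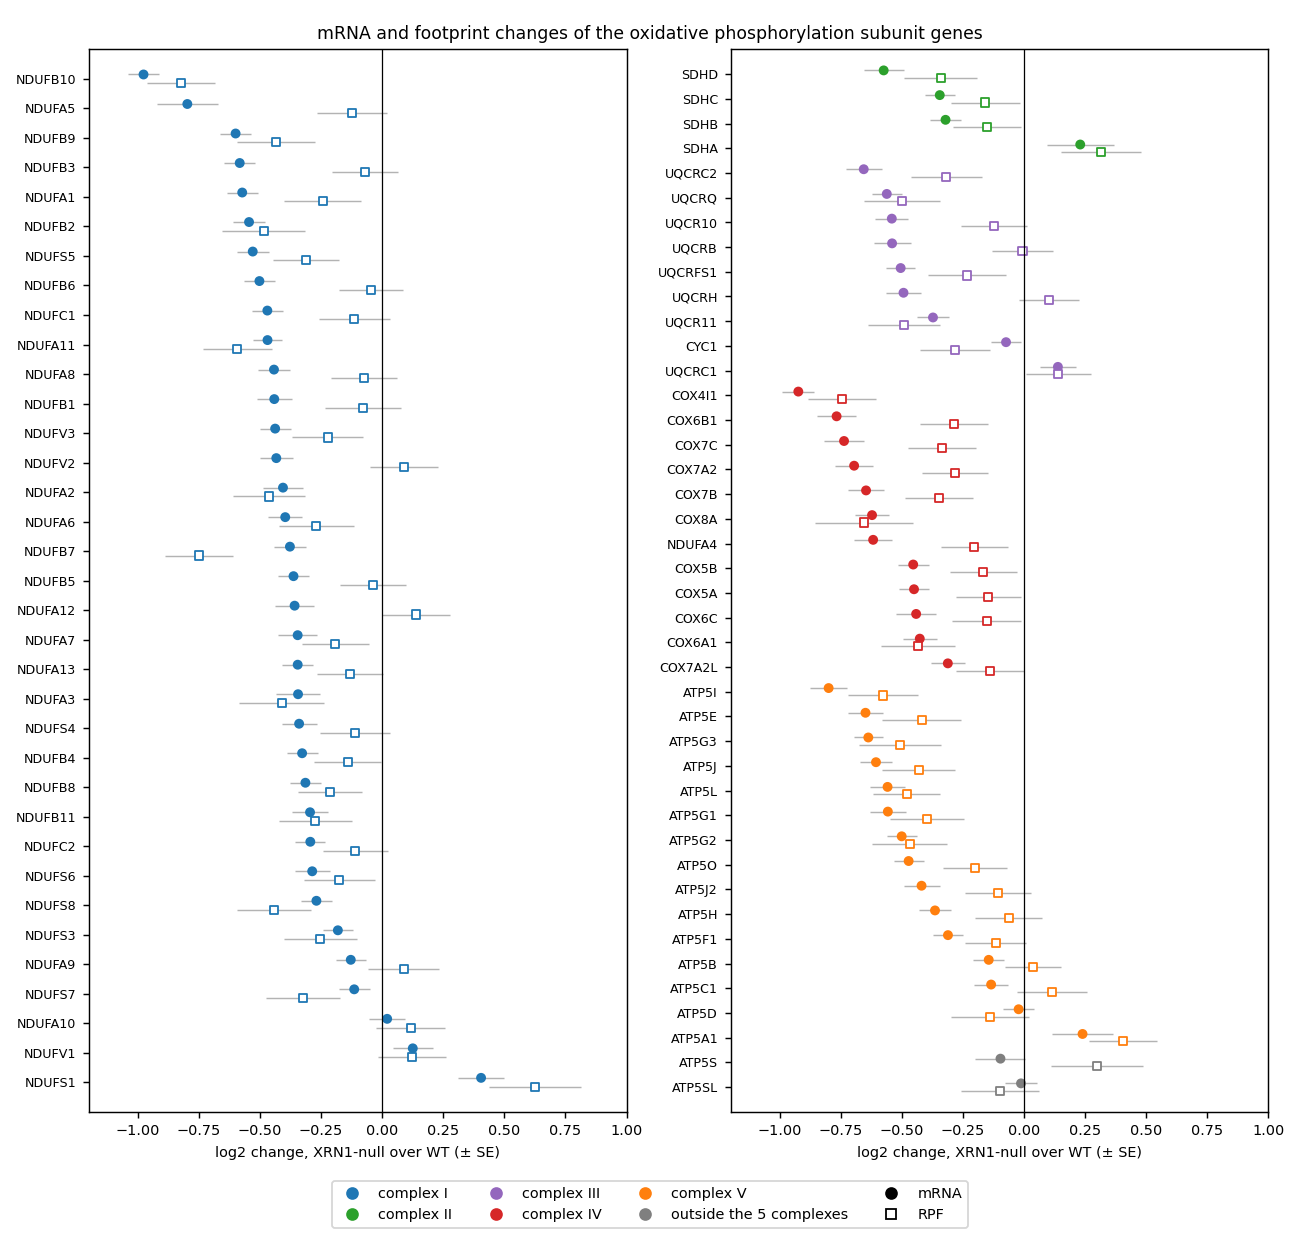
Log2 change (x axis, XRN1-null over WT) of 77 of the 78 genes (y axis, sorted within complexes), for mRNA (filled circles) and RPF (open squares), with bars for the standard error and colours for the complex. Most mRNA points lie left of 0, from -0.98 for NDUFB10 to 0.40 for NDUFS1, and most RPF points lie to the right of the mRNA point of the same gene.

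The mRNA change moved with the length of the coding sequence, in these genes and in the whole table. Subunit genes are short, with a median coding length of 424.5 nt against 1350 nt for the 9793 genes with a known length. Across the 78 genes, which share the same libraries, the log2 change correlated with coding length at Spearman's rho = 0.62 (Pearson's r = 0.69 with the log10 length). Across the 9793 genes rho was 0.51 and r was 0.46. In 4 classes of coding length the median mRNA changes of the subunits lay close to those of the other genes, while the share of genes that passed the threshold was higher among the subunits in each class. Up to 300 nt this share was 95% against 73.6%, and from 301 to 600 nt it was 80.6% against 53.1%. Over all lengths the subunits also had higher mRNA levels in WT (median 141 against 15.0 CPM per kb for all genes). The part of this level in the shares was not tested. Of the 20 subunit genes of up to 300 nt, 19 fell (median -0.57), as did 145 of 197 other genes of this length (median -0.53). From 301 to 600 nt, 29 of 36 subunits (median -0.43) and 586 of 1103 other genes (median -0.38) fell. From 601 to 1000 nt the counts were 5 of 11 (median -0.27) and 649 of 1870 (median -0.22). From 1001 to 2000 nt they were 2 of 10 (median 0.069) and 639 of 3741 (median 0.021).

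When the trend with coding length was fitted in each library and taken out as an offset, 10 of the 78 mRNAs were called lower and 1 higher, against 20% and 17.5% of the 9793 genes. At an FDR below 0.05 the counts were 20 and 3, against 32.2% and 27.2%. The median of the set was then -0.049 and that of all genes -0.030. The mRNAs called lower in this fit at an FDR below 0.005 were those of NDUFB10, NDUFB9, NDUFV3, UQCRC2, UQCRFS1, COX4I1, COX6B1, ATP5B, ATP5G3 and ATP5I, of which all except ATP5B were also called without the offset. ATP5D was the gene called higher. The same length relation also separated the WT replicates. The log2 ratio of WT RNA-Seq replicate 2 to replicate 1 correlated with coding length at rho = 0.75 over the 78 genes and 0.29 over all genes, whereas the corresponding ratio of the XRN1-null replicates gave 0.20 and -0.037. The part of library preparation in the relation was not tested.

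**Figure D2:**
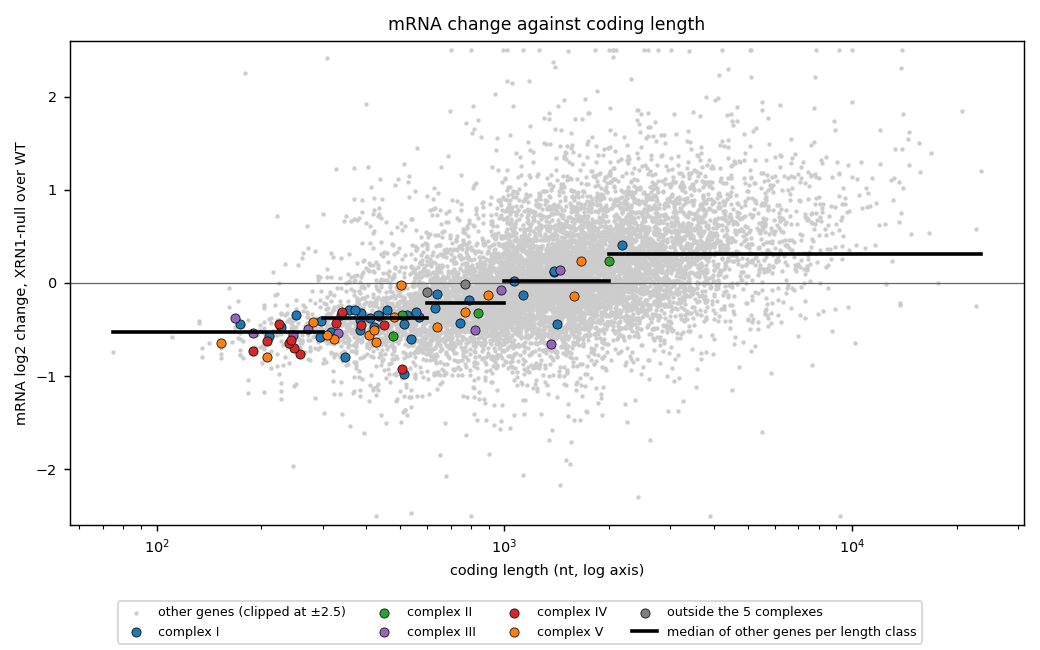
mRNA log2 change (y axis, XRN1-null over WT) against coding length in nt (x axis, log scale) for the 78 subunit genes, coloured by complex, and for the other genes in grey, with black lines at the median of the other genes in each length class. The subunit genes follow the medians of the other genes, which run from -0.53 in the shortest class to 0.31 in the longest.

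Without the length offset complex IV had the lowest median of the complexes, and all of its members were lower in XRN1-null cells. Of its 12 genes, 11 passed the threshold, against 23.2% of all genes, with a median of -0.62. The summed mRNA level of the complex was 2780 and 2514 CPM in WT and 1740 and 1738 CPM in XRN1-null libraries. The difference of the means was -34.3%. These genes were also the shortest, with a median coding length of 253.5 nt. They differed most between the WT replicates too, with a median log2 ratio of replicate 2 to replicate 1 of -0.15 against -0.070 for all 78 genes. For the other sums the difference was -21.5% in complex I, -16.8% in complex II, -22.3% in complex III and -19.4% in complex V. In each of the 5 complexes both XRN1-null sums were below both WT sums. This also held for the sum over all genes, which differed by -3.82%. The complexes were not tested against each other.

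COX4I1, the ubiquitous isoform of the largest nuclear-encoded subunit of complex IV, was at 285 and 267 CPM in WT and 143 and 148 CPM in XRN1-null RNA-Seq. This is a log2 change of -0.92 ± 0.07 (SE, n = 2 per genotype, edgeR adjusted p = 2.8e-05), and -0.61 with the length offset. COX6B1, a subunit that faces the intermembrane space, fell from 170 and 150 to 91.5 and 96.4 CPM (log2 change -0.77). COX7C fell by 0.74 and COX7A2 by 0.69 on the log2 scale. COX8A and NDUFA4 both fell by 0.62, and COX6A1 fell by 0.43. With the length offset 2 of the 12 genes of the complex, COX4I1 and COX6B1, were called lower, against 20% of all genes. The median was then -0.119, beside -0.126 for complex V. In that fit the log2 changes were -0.29 for COX6B1, -0.20 for COX7C, -0.21 for COX7A2, -0.10 for COX8A, -0.13 for NDUFA4 and -0.0065 for COX6A1. COX4I1, COX6A1, COX6B1, COX7A2 and COX8A are the widely expressed members of paralog pairs whose other member is restricted to particular tissues. COX7A2L, a relative of COX7A2 that helps to join complexes III and IV into supercomplexes, was at 102 and 93.6 CPM in WT and 79.5 and 78.3 CPM in XRN1-null cells. Its change of -0.31 ± 0.07 missed the threshold narrowly (edgeR adjusted p = 0.00507) and was 0.098 with the length offset.

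**Figure D3:**
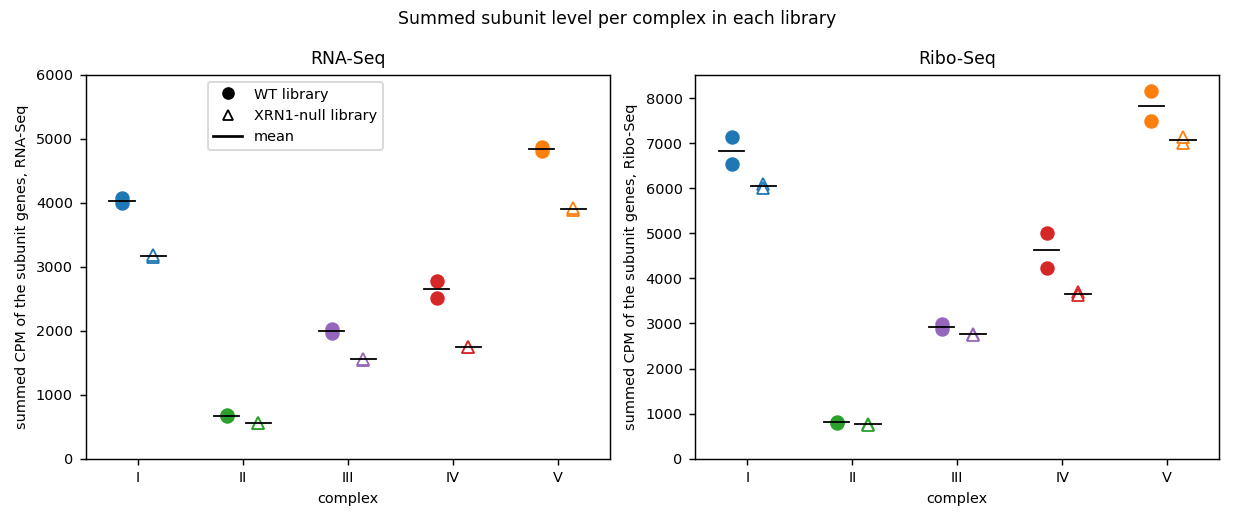
Summed CPM (y axis, from 0) of the subunit genes of each complex (x axis) in every library, RNA-Seq on the left and Ribo-Seq on the right, with filled circles for WT, open triangles for XRN1-null and lines for means. The groups do not overlap in any complex for either assay, and the 2 WT libraries lie farthest apart in complex IV, at 2780 and 2514 CPM in RNA-Seq.

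Complex I accepts electrons from NADH through a set of conserved core subunits, around which many accessory subunits are arranged. Of its 7 nuclear core genes 1 fell (median -0.11), and of the 29 accessory genes 22 fell (median -0.40), against 23.2% of all genes. The core genes were the longer ones, with a median coding length of 792 nt against 387 nt. With the length offset none of the 7 core genes and 3 of the 29 accessory genes were called lower, against 20% of all genes. The medians were then 0.075 and -0.029, so most of the difference between these groups was lost. NDUFS1, the iron-sulfur subunit with the longest coding sequence of the set (2181 nt), was at 84.9 and 102 CPM in WT and at 121 and 127 CPM in XRN1-null cells. Both XRN1-null values were above both WT values, and the log2 change of 0.40 ± 0.09 missed the threshold (edgeR adjusted p = 0.00621). This call depended on the scaling and the tool, since the adjusted p was 0.00435 with RLE factors and 0.00274 with library totals in edgeR and 0.000113 in DESeq2. The log2 change was 0.30 without WT replicate 1, 0.54 without WT replicate 2 and 0.18 with the length offset. NDUFV1, the core subunit that binds NADH, had a log2 change of 0.13 ± 0.08 and did not pass. NDUFV2, which carries an iron-sulfur cluster beside NDUFV1, was the core gene that fell, from 95.9 and 89.6 to 67.0 and 70.4 CPM (log2 change -0.43, edgeR adjusted p = 0.000993). For NDUFS3, NDUFS7 and NDUFS8 the log2 changes were -0.18, -0.11 and -0.27, with adjusted p-values by edgeR of 0.0332, 0.145 and 0.00714.

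NDUFB10, an accessory subunit of the membrane arm, had the largest fall of all 78 genes without the length offset. It was at 254 and 239 CPM in WT and at 125 and 126 CPM in XRN1-null RNA-Seq, and decreased by 49.2% in the fit (log2 change -0.98 ± 0.06, SE, n = 2 per genotype, edgeR adjusted p = 2.08e-05). The gene lies on the plus strand of chromosome 16 from 2009539 to 2011976 (hg19) and shares no exon bases with another annotated gene. NDUFA5, an accessory subunit of the matrix arm, fell from 112 and 84.7 to 58.1 and 55.3 CPM (log2 change -0.80). The groups did not overlap, but the WT replicates of NDUFA5 were far apart. NDUFA1, with the highest mRNA level per kb of coding sequence in this complex, fell by 0.57 on the log2 scale. Neither NDUFA5 (-0.39) nor NDUFA1 (-0.060) was called with the length offset. NDUFB10 was called in that fit (-0.67), where UQCRC2 of complex III had a larger fall (-0.69).

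Complex II, succinate dehydrogenase, is also an enzyme of the citric acid cycle and is the only complex made entirely from nuclear genes. SDHB, its iron-sulfur subunit, and the membrane anchors SDHC and SDHD fell by 0.32, 0.34 and 0.57 on the log2 scale. In the fit with the length offset their log2 changes were -0.14, -0.032 and -0.24, and no gene of the complex was called. SDHD was at 170 and 146 CPM in WT and at 107 and 106 CPM in XRN1-null cells. SDHA, the flavoprotein, was at 100.1 and 138 CPM in WT and at 135 and 144 CPM in XRN1-null cells, and these groups overlapped (log2 change 0.23 ± 0.14, edgeR adjusted p = 0.169). SDHA has near copies in the table whose reads may have been shared with it. SDHAP1, SDHAP2 and SDHAP3 had RNA-Seq levels of 3.41 to 5.79 CPM in WT and 17.6 to 23.2 CPM in XRN1-null cells, with log2 changes of 2.26, 2.45 and 1.88, all past the threshold.

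In complex III, the cytochrome bc1 complex, 7 of 9 genes fell, against 23.2% of all genes, and 2 of the 9 were called lower with the length offset, against 20%. UQCRC2, a core protein of 1359 coding nt, fell from 198 and 220 to 130 and 136 CPM (log2 change -0.66 ± 0.07, edgeR adjusted p = 0.000194), and its change was -0.69 with the length offset. Its partner UQCRC1, of similar length, was at 239 and 266 CPM in WT and at 271 and 284 CPM in XRN1-null cells (log2 change 0.14 ± 0.07, edgeR adjusted p = 0.13). UQCRFS1, the Rieske iron-sulfur protein, fell from 176 and 172 to 123 CPM in both XRN1-null libraries. CYC1, cytochrome c1, was at 237 and 233 CPM in WT and at 221 and 226 CPM in XRN1-null cells and did not pass (log2 change -0.073).

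In complex V, 1 of the 5 genes of the catalytic head and its central stalk fell, with a median of -0.13. This was ATP5E (log2 change -0.65, and -0.075 with the length offset). All 10 genes of the other parts fell, with a median of -0.53, against 23.2% of all genes that fell. The head and central stalk held the longest coding sequences of the complex, up to 1659 nt, against at most 768 nt in the other parts. With the length offset ATP5B was called lower and ATP5D higher in the head and central stalk, and 2 of the 10 other genes, ATP5G3 and ATP5I, were called lower, against 20% of all genes lower and 17.5% higher. The medians were then 0.014 and -0.16, and at an FDR below 0.05 the offset fit called 1 of the 5 and 6 of the 10 genes lower, against 32.2% of all genes. ATP5A1 and ATP5B, whose proteins alternate around the head and form the catalytic sites, had log2 changes of 0.24 ± 0.12 and -0.14 ± 0.06 and did not pass. ATP5A1 was at 328 and 437 CPM in WT and at 437 and 466 CPM in XRN1-null cells, so that the WT replicates differed more than the XRN1-null replicates. ATP5D, the delta subunit of the central stalk, had a log2 change of -0.022, which was 0.034 when libraries were scaled by their totals and 0.29 with the length offset. All 3 genes of the peripheral membrane part, all 4 of the peripheral stalk and all 3 that encode the identical mature c subunit of the proton-driven ring fell. ATP5I, of the membrane part, fell from 136 and 123 to 77.0 and 72.0 CPM (log2 change -0.80). ATP5G1, ATP5G2 and ATP5G3 fell by 0.56, 0.50 and 0.64 on the log2 scale, and the share of ATP5G3 in the summed c subunit mRNA was 43.2% and 45.0% in WT and 42.0% and 42.2% in XRN1-null libraries. ATP5S and ATP5SL, outside the complexes, had log2 changes of -0.096 and -0.012.

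Promoters of the set were read from the GRCh37 genome, 250 bases before to 50 bases after the annotated start of the reference transcript of each gene, which for some genes lies inside the gene, and searched on both strands for motifs known from genes of the respiratory chain. Matches may overlap each other. The NRF1 motif GCGCANGCG was found in 24 of 78 windows (30.8%) and in 17.3% of the 9982 windows of all genes with a position. The YY1 motif AAGATGGC was in 17 of the 78 (21.8%) and in 6.86% of all windows. The ETS motif CCGGAAG of GABPA was in 24 (30.8%) and in 21.9% of all, the SP1 motif GGGCGG in 49 (62.8%) and 76.7%, and the TATA box TATAAA in 5 (6.41%) and 4.70%. Among the 55 genes with lower mRNA and the 23 others, the NRF1 motif was in 15 and 9 windows, the ETS motif in 20 and 4, and the YY1 motif in 9 and 8. These splits were not tested. The 80 bases before the start are shown for genes of 4 complexes with different motifs and no annotated exon in the interval, in lower case with the matches to these motifs in capitals, 5′ to 3′ on the strand of the gene.
NDUFB10 (chr16:2009459-2009538, plus strand, SP1): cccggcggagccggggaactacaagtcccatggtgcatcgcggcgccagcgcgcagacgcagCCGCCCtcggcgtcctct
UQCRFS1 (chr19:29704059-29704138, minus strand, NRF1): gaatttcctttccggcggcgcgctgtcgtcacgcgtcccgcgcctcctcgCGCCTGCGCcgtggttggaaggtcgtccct
UQCRH (chr1:46769290-46769369, plus strand, ETS): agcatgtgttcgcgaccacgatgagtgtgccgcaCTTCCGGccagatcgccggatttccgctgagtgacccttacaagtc
COX6B1 (chr19:36139145-36139224, plus strand, ETS): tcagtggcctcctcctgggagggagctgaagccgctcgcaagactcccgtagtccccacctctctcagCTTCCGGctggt
ATP5G3 (chr2:176046439-176046518, minus strand, NRF1): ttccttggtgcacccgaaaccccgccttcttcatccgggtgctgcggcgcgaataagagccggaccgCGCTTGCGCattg

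The footprints of the same genes had smaller log2 differences, and fewer passed the threshold. The RPF of 1 of the 78 genes fell, NDUFB10, against 1.14% of all genes, and none rose, against 0.633%. At an unadjusted p below 0.05, 3 were higher and 25 lower, against 16.2% and 16.8% of all genes, and DESeq2 called 0 higher and 2 lower, against 0.93% and 1.17%. At an FDR below 0.05, 9 were lower and 1 was higher, against 8.38% and 7.07% of all genes. The median log2 change of the RPF was -0.18, beside -0.0033 for all genes, and it was -0.11 without WT Ribo-Seq replicate 1 and -0.25 without WT Ribo-Seq replicate 2. In 52 of 78 genes both XRN1-null libraries were below both WT libraries, compared with 32.3% of all genes. The number of genes called lower was 34 without WT Ribo-Seq replicate 2 and 7 without WT replicate 1, against 10.8% and 7% of all genes in these fits. It was 0 without either XRN1-null replicate, against 0.713% and 0.98%. With the length offset the median turned to 0.066, beside 0.021 for all genes, and NDUFB10 was still the only gene called lower, against 2.58% of all genes, with none higher, against 1.96%. At an FDR below 0.05, 3 were then lower (NDUFB10, COX4I1 and NDUFB7) and 4 higher (NDUFS1, NDUFA12, UQCRH and ATP5A1), against 9.07% and 8.62% of all genes.

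NDUFB10 footprints were at 301 and 284 CPM in WT and at 157 and 174 CPM in XRN1-null cells (log2 change -0.82 ± 0.14, edgeR adjusted p = 0.00447). COX4I1 footprints, at 560 and 473 CPM in WT and 311 and 304 CPM in XRN1-null cells, and those of NDUFB7, at 79.7 and 82.9 CPM and then 48.9 and 48.1 CPM, had adjusted p-values by edgeR of 0.00642 and 0.00641. The others at an FDR below 0.05 were NDUFA11, COX8A, UQCR11, UQCRQ, ATP5I and ATP5L, with log2 changes from -0.65 to -0.48, and none of these 6 passed this threshold with the length offset. NDUFS1 was the gene with a higher RPF at this looser threshold, at 118 and 187 CPM in WT and 244 and 234 CPM in XRN1-null cells. Its log2 change was 0.62 ± 0.19 (edgeR adjusted p = 0.0427), and the WT replicates differed widely. By complex, the summed RPF level differed by -20.7% in complex IV, -11.5% in complex I, -9.54% in complex V, -5.97% in complex III and -5.81% in complex II. The sum over all genes differed by -1.14%.

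Translation efficiency (TE) is the footprint level of a gene over its mRNA level, here as the ratio of CPM of same-numbered libraries. In WT cells its median was 1.53 for the 78 genes and 0.82 for all genes. NDUFB6, an accessory subunit of complex I, had the highest ratio of the set, at 3.34 and 3.40 in the WT replicates, and ATP5SL and COX7A2L had the lowest means, at 0.607 and 0.666. Median ratios in WT were 1.89 for complex IV, 1.64 for complex V, 1.59 for complex I, 1.32 for complex III and 1.19 for complex II. The ratio counts footprints per mRNA read and is not a rate.

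The TE of the set was slightly higher in XRN1-null cells, with no single gene past the main threshold. In the test of the interaction between genotype and assay over the 8 libraries, none of the 78 genes rose or fell at an FDR below 0.005, against 0.0495% and 1.78% of all genes. At an unadjusted p below 0.05, 18 were higher and 1 lower, against 8.76% and 14.6% of all genes, and DESeq2 called 4 higher and 0 lower, against 0.336% and 4.48%. At an FDR below 0.05, 5 were higher, against 1.02% of all genes, and 0 were lower, against 6.46%. The median log2 change was 0.19, beside 0.0081 for all genes. In 53 of 78 genes both XRN1-null ratios were above both WT ratios, a pattern seen in 28.8% of all genes. The medians of the 4 pairs of ratios ran from 0.13 to 0.27.

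By length class the median TE changes were 0.32 for subunits of up to 300 nt, 0.18 from 301 to 600 nt, 0.17 from 601 to 1000 nt and 0.17 from 1001 to 2000 nt, and those of the other genes were 0.18, 0.12, 0.096 and 0.0070. With the length offset the median of the set was 0.13 and that of all genes 0.045, and no subunit was called higher or lower at an FDR below 0.005, against 0.112% and 0.96% of all genes, or at an FDR below 0.05, against 1.74% and 4.07%.

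The 5 genes with higher TE at the looser threshold, named here after their values were seen, all had lower mRNA, and the log2 changes of their footprints ran from -0.069 to 0.10. The mRNA level is the denominator of TE, so these changes are linked, and 71 of the 78 mRNA changes were negative. None of the 5 kept the call of higher TE with the length offset. In that fit the edgeR adjusted p-values ran from 0.0591 to 0.0931 and the log2 TE changes from 0.37 for NDUFB6 to 0.47 for UQCRH. UQCRH, the hinge protein that helps cytochrome c1 bind cytochrome c, had mRNA levels of 388 and 346 CPM in WT and 263 and 259 CPM in XRN1-null cells. Its footprints were at 700.1 and 748 CPM in WT and 782 and 773 CPM in XRN1-null cells, which gives a log2 TE change of 0.59 ± 0.13 (edgeR adjusted p = 0.0185). UQCRB, another small subunit of complex III, had footprints of 529.7 and 529 CPM in WT and 535 and 520.04 CPM in XRN1-null cells and a TE change of 0.53. NDUFV2 and NDUFB3 each had a TE change of 0.52, and NDUFB6 had one of 0.46. For NDUFB6 the ratios were 4.59 and 4.65 in XRN1-null cells, above both WT ratios. NDUFA5 had the largest TE change of the set, at 0.68 ± 0.19, and just missed the looser threshold (edgeR adjusted p = 0.0533), with WT ratios of 0.900 and 1.18 and XRN1-null ratios of 1.71 and 1.54. NDUFB7 had the largest difference in the other direction, a TE change of -0.37 ± 0.13 that did not pass (edgeR adjusted p = 0.1).

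ATP synthase contains its subunits in unequal numbers, with several copies of the alpha, beta and c subunits for each gamma subunit. Footprints per kb of coding sequence were used to set its messages side by side, and whether they follow the copy numbers was not tested. In WT cells ATP5B, which encodes beta, had 1.84 ± 0.24 times (SD, n = 2) the footprint level of ATP5C1, which encodes gamma, and 1.72 ± 0.05 times in XRN1-null cells. ATP5A1, which encodes alpha, was at 0.779 and 0.788 times the level of ATP5C1 in WT and at 0.918 and 1.001 times in XRN1-null libraries, so the groups did not overlap. With 2 libraries per genotype the ratios to ATP5C1 were not tested. The 3 c subunit messages summed to 11.2 and 6.46 times the level of ATP5C1 in WT and to 5.09 and 6.23 times in XRN1-null libraries. ATP5E, with 153 coding nt, was at 7.15 and 4.23 times in WT and at 3.94 and 3.64 times in XRN1-null libraries. These groups did not overlap either, and for both the WT replicates lay farther apart than the means of the genotypes. ATP5G3 gave most of the c subunit footprints, at 63.7% and 61.0% in WT and 59.9% and 62.8% in XRN1-null libraries, although it gave 42.0% to 45.0% of the mRNA.

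**Figure D4:**
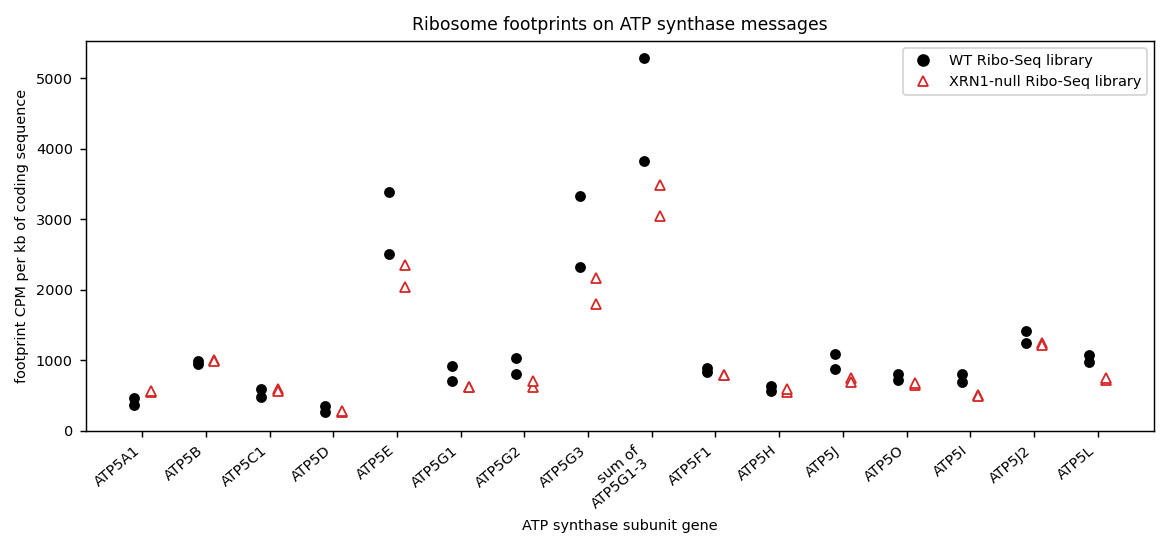
Footprint CPM per kb of coding sequence (y axis, from 0) for the ATP synthase genes and the sum of the 3 c subunit genes (x axis), with filled circles for WT and open triangles for XRN1-null Ribo-Seq libraries. ATP5E and ATP5G3 are the highest single genes, and for both the WT replicates lie far apart.

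Of 56 assembly factors, which build the complexes without being part of them, 22 mRNAs fell and 9 rose, with a median of -0.26. These are 39.3% and 16.1% of the list, against 23.2% and 22.9% of all genes. The shares of this list and of the next do not take coding length into account. ACAD9, needed to assemble complex I, rose from 41.3 and 47.2 to 84.3 and 85.1 CPM (log2 change 0.94 ± 0.08), and COX18, which inserts a complex IV subunit into the membrane, rose by 0.77 on the log2 scale. The largest falls in this list were those of TMEM261 and TMEM186, both linked to complex I assembly, by 1.19 and 1.14. C17orf89, another complex I assembly factor, was the only listed gene whose RPF passed the threshold, 1 of 56 against 1.14% of all genes (log2 change -1.04 ± 0.15, edgeR adjusted p = 0.00295), while its mRNA fell by 0.89. No TE of an assembly factor passed at an FDR below 0.005 by edgeR, with 2 higher and 11 lower at an unadjusted p below 0.05, a threshold passed by 8.76% and 14.6% of all genes. Of 18 electron carriers, inhibitors and regulators of mitochondrial biogenesis, 6 mRNAs fell and 2 rose, which are 33.3% and 11.1% against the same shares of all genes. NDUFAB1, the mitochondrial acyl carrier protein, which is also a complex I subunit but does not match the symbol rule, fell by 1.06 on the log2 scale. CLUH, which binds mRNAs of nuclear-encoded mitochondrial proteins, rose by 0.51. The 13 subunits encoded by mitochondrial DNA were looked for, and none was found in the count table.

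Of the 78 genes, 43 share exon bases with another annotated gene, 29 of them with a gene on the opposite strand, and the strand setting of the counting is not given in the sources used here. Reads of ATP5J2 and NDUFC2 may be shared with the read-through rows ATP5J2-PTCD1 and NDUFC2-KCTD14, which had mRNA log2 changes of 0.26 and -0.34 beside -0.42 for ATP5J2 and -0.29 for NDUFC2.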

How the data were processed

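The authors used Bowtie2 to filter out rRNA and Tophat2 to map what remained on hg19, kept footprints of selected lengths, counted reads per gene with QuasR and deposited raw counts, after leaving out genes under an FPKM cutoff. The deposited tables of the authors' own comparisons (log2 fold changes, mean expression, p-values, FDR and TE) were not used.

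Groups and replicate numbers came from the sample labels. edgeR 4.0.16 in R 4.3.3 was fitted on all 10105 genes, with TMM factors within each assay, genotype as the only term, and the interaction of assay and genotype for TE, since RiboDiff was not installed. Standard errors are the log2 change divided by the square root of F. CPM are counts per 1000000 of the TMM-scaled total. p-values cover the spread between 2 biological replicates only.

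All 78 genes and 9982 of the 10105 were matched by symbol to GENCODE release 44 on GRCh37, 478 of the latter through RefSeq synonyms. Coding length is that of the reference transcript.

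Alternatives were DESeq2 1.42.0, other scalings, a filter at 10 counts, replicate blocks, an FDR of 0.05 and each library left out. The length offset (loess, span 0.3) was added after seeing the data. Tests were checked on simulated data. The members and lists were chosen with earlier results of these data known. The genes named are the 4 largest rises and falls per contrast past the threshold, the catalytic core (1 gene of which is not reported here), paralog sets, the highest and lowest mRNA level per kb of coding sequence in each complex, and the 2 largest rises and falls of the other pathway genes. NDUFB7, NDUFB6, NDUFB3, UQCRB, UQCRC1, NDUFA12, NDUFAB1, CLUH, ATP5S, ATP5SL and the genes listed at an FDR below 0.05 were named after their values were seen.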

Additional observations from a re-analysis of the deposited data

How the results depend on the processing

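Shares of all genes in the same setting are given in parentheses. The mRNA count of 55 lower genes was 52 with RLE factors (21.7%), 46 with library totals (19.0%) and 55 with the count filter (23.3%). The count was 62 with the replicate block (27.8%), 58 with DESeq2 (24.2%) and 63 with an FDR of 0.05 (34.2%). With the coding length offset it was 10 (20%). The number of higher mRNAs, 0, was 1 with an FDR of 0.05 (32.8%), RLE factors (23.8%) and library totals (26.4%). It was also 1 with the replicate block (28.3%), DESeq2 (26.6%) and the offset (17.5%). The lower RPF, 1, became 9 with an FDR of 0.05 (8.38%) and 2 with library totals (1.62%). It became 2 with DESeq2 (1.17%) and 6 with the replicate block (6.58%). The higher RPF, 0, became 1 with an FDR of 0.05 (7.07%) and with the block (6.1%). The higher TE, 0, became 5 with an FDR of 0.05 (1.02%), 4 with DESeq2 (0.336%) and 2 with the culture replicate block (0.544%). The offset moved the median mRNA change to -0.049 and turned that of the RPF from -0.18 to 0.066. The cause was not tested.

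Leaving out 1 library in turn gave 22 to 64 lower and 0 to 6 higher mRNAs (the 6 without WT replicate 2, against 33.7% of all genes) with medians of -0.47 to -0.34, 0 to 34 lower and 0 to 5 higher RPFs (the 5 without WT replicate 2, against 12.7%), with medians of -0.25 to -0.11, and 0 to 1 higher TE with medians of 0.14 to 0.27. The lone sample of a group is there assumed to vary like the others.

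The offset turned the mRNA changes of 21 of the 78 genes from negative to positive, among them NDUFS3 (0.014), NDUFS7 (0.13), CYC1 (0.016), COX7A2L (0.098), UQCR11 (0.18) and ATP5D (0.29). That of ATP5D was also 0.034 with library totals and ranged from -0.051 to 0.022 with 1 library left out. Complexes assigned by the start of the symbol kept their medians within the spread of the library pairs.

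The labels give the same replicate numbers in every group without saying what they share. Deviations of same-numbered libraries correlated at 0.19 in RNA-Seq and 0.080 in Ribo-Seq across genes, and at 0.36 for WT and 0.033 for XRN1-null between assays, so the numbers do not show that samples were paired. With the replicate block 62 mRNAs were lower, against 27.8% of all genes lower and 28.3% higher. Of the genes named, NDUFS1 (0.41), NDUFS8 (-0.27) and COX7A2L (-0.31) then passed. The RPFs of COX4I1, COX8A, NDUFA11, NDUFB7, ATP5I, NDUFS1 and TMEM261 passed too, in a fit that called 6.58% of all genes lower and 6.1% higher. With the culture replicate block the TE of UQCRH, UQCRB and COX18 passed, against 0.544% of all genes higher and 4.3% lower. Where a setting gave 1 higher mRNA it was NDUFS1, except with the offset (ATP5D). Ribo-Seq depth limits single genes: ATP5S had 62 counts in the shallowest case.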
